A study of Homo sapiens with 4 samples.

Results

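Integrins, laminins, collagens and a set of other matrix proteins were followed in KELLY, a human neuroblastoma line whose MYCN gene is amplified. Members were taken by gene symbol alone: symbols that begin as an integrin alpha or beta chain, a laminin chain or a collagen chain, plus FN1, VCAN, THBS1, THBS2, TNC, SPARC, NID1 and NID2, and no symbol with a hyphen. This gave 97 of the 28063 gene rows. Of these, 89 belong to the named families and 8 (COL4A3BP, ITGB1BP1, ITGB1BP2, ITGB3BP, ITGBL1 and the pseudogenes LAMB2P1, COL6A4P1 and COL6A4P2) were caught by spelling only. A filter on low counts passed 57 members, 52 of them from the named families, and the other 40 were not tested.

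Both groups were KELLY cells carrying a lentiviral vector for FLAG-tagged IWS1, a factor that travels with elongating RNA polymerase II, and both were selected with 1 ug/ml puromycin. One group (WT) received the wild-type protein and the other (M3) a mutant with a disrupted TIM3, a TND-interacting motif, which is a short disordered stretch that binds the TFIIS N-terminal domain of partner proteins. The labels do not say whether the cells kept their own IWS1, nor whether the 2 libraries of a group came from separate cultures, so each p-value rests on library-to-library spread alone, and this may be technical. Poly(A) RNA was sequenced to between 12289685 and 20962372 reads assigned to genes per library.

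IWS1 was counted at 370 and 394 CPM (reads of a gene relative to all gene reads of the library, scaled by TMM factors) in WT libraries 1 and 2 and at 596 and 599 in M3 libraries 1 and 2. Its log2 fold change was 0.65 ± 0.12 (SE; edgeR adjusted p = 0.0225), and it lost the call without either M3 library (adjusted p = 0.215 and 0.138). The count adds up the cell's own gene and any coding sequence in the vector, so it does not check which form was carried. The 8 sympathoadrenal markers of the line were read in every library, with MYCN from 2247 to 2386 CPM, but all 8 were lower in both M3 libraries. Of all tested genes 34.1% were lower in both M3 libraries. The sum of the 8 markers was 6307 and 6023 CPM with WT and 4915 and 4957 with M3, and PHOX2A (-0.73 ± 0.14, adjusted p = 0.0225), DBH (-0.71 ± 0.14, 0.0225) and TH (-0.59 ± 0.13, 0.0287) fell. The median log2 fold change of the 8 was -0.387. With the trends of transcript length and GC content removed, as described below, it was -0.185. There 1 of the 8 (12.5%) was called lower, beside 3.10% of all genes. The part of these markers in the results on matrix genes was not tested. Markers of other cell types were low but not all absent. The 8 endothelial markers summed to 3.83 to 4.81 CPM in a library, with TIE1 and EMCN at 0 reads and KDR at 3, 16, 11 and 20. The 7 Schwann cell markers summed to 15.3 to 20.4 CPM, most of it NGFR, with S100B at 0, and the 6 haematopoietic markers to 2.26 to 3.84 CPM, with CD3E at 0. Epithelial markers are given beside collagen I, where they stand apart in WT library 1. The 11 fibroblast markers summed to 710 and 619 CPM with WT and 568 and 561 with M3, most of it FBLN1, with DCN, FAP and POSTN at most 5 reads in a library. PDGFRB of that list was at 67.8 and 88.1 CPM with WT and 111 and 110 with M3 (0.50 ± 0.15, adjusted p = 0.0534), and COL1A1, COL1A2 and COL3A1 of the list are themselves members. Reads in no feature were 23.25% and 23.24% with WT and 27.53% and 25.57% with M3, and the part of this in the results was not tested.

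The extracellular matrix is a meshwork that cells secrete and hold on to. Laminins, each made of an alpha, a beta and a gamma chain, and collagen IV form the sheets called basement membranes, which nidogens link. Fibrillar collagens form fibres and collagen VI forms beaded filaments between them. Integrins are receptors of an alpha and a beta chain that bind these proteins outside the cell and the actin skeleton within it. Matricellular proteins such as thrombospondins and SPARC act mainly on how cells attach, and versican is a large chondroitin sulfate proteoglycan. In the peripheral nervous system, whose precursors give rise to neuroblastoma, laminins and their integrins are known for carrying axon growth and neural crest migration.

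The results below turn on LAMA3, THBS2 and ITGAV, the members with the largest rises among those that passed the test, and on the gene pair COL4A1 and COL4A2. Their start regions are shown here from RefSeq on GRCh38.p14, each 5′ to 3′ on the strand of the gene named, as the 250 bases before the start. For the collagen IV pair the 126 bases between both starts are shown on the strand of COL4A2. Capitals mark matches, on either strand, to any of 5 motifs. They are CACGTG, the E-box bound by MYC proteins, the TATA box TATAAA, the box CCAAT bound by factor NF-Y, the GC box GGGCGG bound by Sp1, and TGANTCA, the site of AP-1. None of these motifs overlapped another in the runs shown. The window of LAMA3 is chr18:23872770-23873019 on the plus strand. It lies inside the annotated gene, before an inner start, and the counts do not tell which start was used. The windows of THBS2 (chr6:169253847-169254096, minus strand) and ITGAV (chr2:186589806-186590055, plus strand) end at the outer start of the gene. The collagen IV run is chr13:110307158-110307283, with COL4A1 leaving on the minus strand.
LAMA3: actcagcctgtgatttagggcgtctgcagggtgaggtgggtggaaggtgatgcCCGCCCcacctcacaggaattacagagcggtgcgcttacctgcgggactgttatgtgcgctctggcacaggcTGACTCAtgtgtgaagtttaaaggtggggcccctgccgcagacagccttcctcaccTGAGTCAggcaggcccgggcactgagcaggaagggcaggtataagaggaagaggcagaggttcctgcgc
THBS2: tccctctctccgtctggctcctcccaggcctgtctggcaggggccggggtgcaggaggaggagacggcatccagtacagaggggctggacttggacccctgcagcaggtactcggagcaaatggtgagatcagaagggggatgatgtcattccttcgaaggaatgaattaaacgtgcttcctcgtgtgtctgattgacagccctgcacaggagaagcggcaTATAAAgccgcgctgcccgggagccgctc
ITGAV: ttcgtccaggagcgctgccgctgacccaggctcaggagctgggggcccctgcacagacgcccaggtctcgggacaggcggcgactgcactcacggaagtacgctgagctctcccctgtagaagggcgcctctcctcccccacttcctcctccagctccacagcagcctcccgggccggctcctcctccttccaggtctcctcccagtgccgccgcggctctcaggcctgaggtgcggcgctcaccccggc
COL4A1 to COL4A2: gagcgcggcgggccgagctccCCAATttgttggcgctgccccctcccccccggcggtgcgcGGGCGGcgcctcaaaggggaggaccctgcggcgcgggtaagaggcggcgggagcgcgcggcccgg

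LAMA3 held 2 matches to TGANTCA and 1 to GGGCGG, and THBS2 held 1 to TATAAA. ITGAV held none of the 5 motifs in this window. The collagen IV run held 1 match to CCAAT and 1 to GGGCGG, and 80.2% of its bases were G or C. Windows were found for 71 members, of which TGANTCA was present in 1 (1.41%), CACGTG in 1 (1.41%, the window of ITGA6), TATAAA in 7 (9.86%), CCAAT in 19 (26.8%) and GGGCGG in 40 (56.3%). Over all 27305 windows of the same length the shares in the same order were 6.6%, 6.49%, 11.1%, 33.0% and 42.3%. A match is a description of these letters and not of a bound site.

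Matrix genes stood at very unequal levels in both groups. Levels are compared between genes per length, as CPM per kb of the longest annotated transcript (RPKM). A gene has the same length in every library, so ratios per length keep the trend of fold change with length described below. SPARC, a secreted calcium-binding matricellular protein, was the highest member, with a mean of 69.3 RPKM over the 4 libraries. Among members of the named families it was followed by COL6A1 (51.4), the integrin chains ITGB5 (37.6) and ITGB1 (35.6), COL4A2 (31.6), COL6A2 (24.9) and LAMB1 (24.7). LAMA5 (19.4), LAMC1 (18.9) and LAMB2 (17.6) came next, then FN1 (13.7), VCAN (13.3) and LAMA1 (10.2). The ranges of ITGB5 (36.5 to 38.8) and ITGB1 (28.5 to 39.4) overlapped, as did those of COL6A2 (20.8 to 28.1) and LAMB1 (20.7 to 27.1), those of ITGB1 and COL4A2 (27.8 to 35.6), those of LAMA5, LAMC1 and LAMB2, and those of FN1, VCAN and LAMA1, so these neighbours were not separated. The order is of means over both groups: VCAN was below FN1 with WT (9.33 and 12.8) and above it with M3 (17.4 and 14.6). SPARC (58.5 to 81.0) and COL6A1 (44.6 to 57.5) did not overlap, although both were lower in M3. ITGAV (6.76) and ITGA6 (4.89) stood below their partners ITGB5 and ITGB1 and above their other possible partners ITGB4 (0.478), ITGB8 (0.302) and ITGB3 (0.22).

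**Figure D1:**
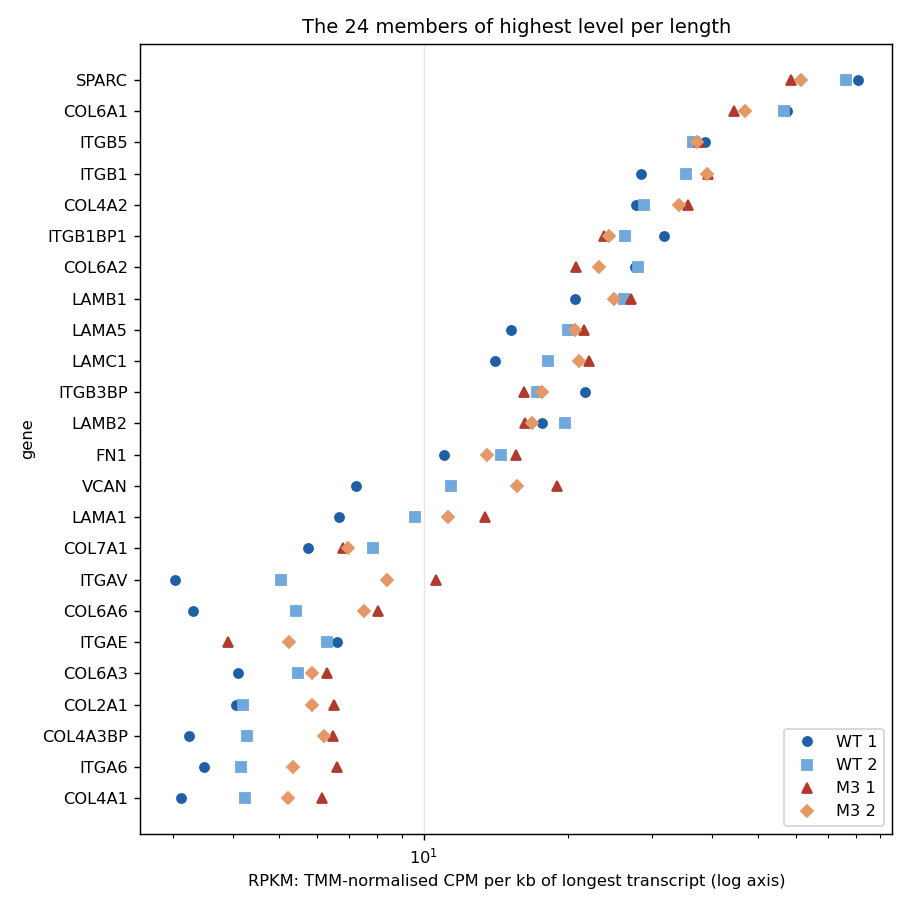
Level of the 24 members of highest mean RPKM (CPM per kb of longest transcript, log axis), 1 point per library. SPARC and COL6A1 lie at the top with both WT points to the right of both M3 points, while VCAN, ITGAV and COL6A6 show the opposite order.

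Between M3 and WT, 9 of the 57 tested members (15.8%) passed the test at an adjusted p below 0.05, all of them higher in M3, beside 15.8% of all 14141 tested genes. The total was therefore at the background. The higher calls were above their background of 9.16%, and the absence of lower calls compares with a background of 6.63%. The 9 were LAMA3, THBS2, ITGAV, VCAN, COL6A6, COL4A3BP, COL5A1, ITGA6 and COL2A1. The median log2 fold change of the tested members was 0.19, beside -0.01 for all tested genes, with a range from -1.02 to 1.69. In 38 members (66.7%, background 68.2%) the groups did not overlap: M3 was the higher one in 25 (43.9%, background 34.0%) and the lower one in 13 (22.8%, background 34.1%). An unadjusted edgeR p below 0.05 was seen in 24 of the 57 members, beside 5078 of all 14141 tested genes. In RNA from whole cultures, fewer cells expressing a gene and less RNA per cell cannot be told apart.

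**Figure D2:**
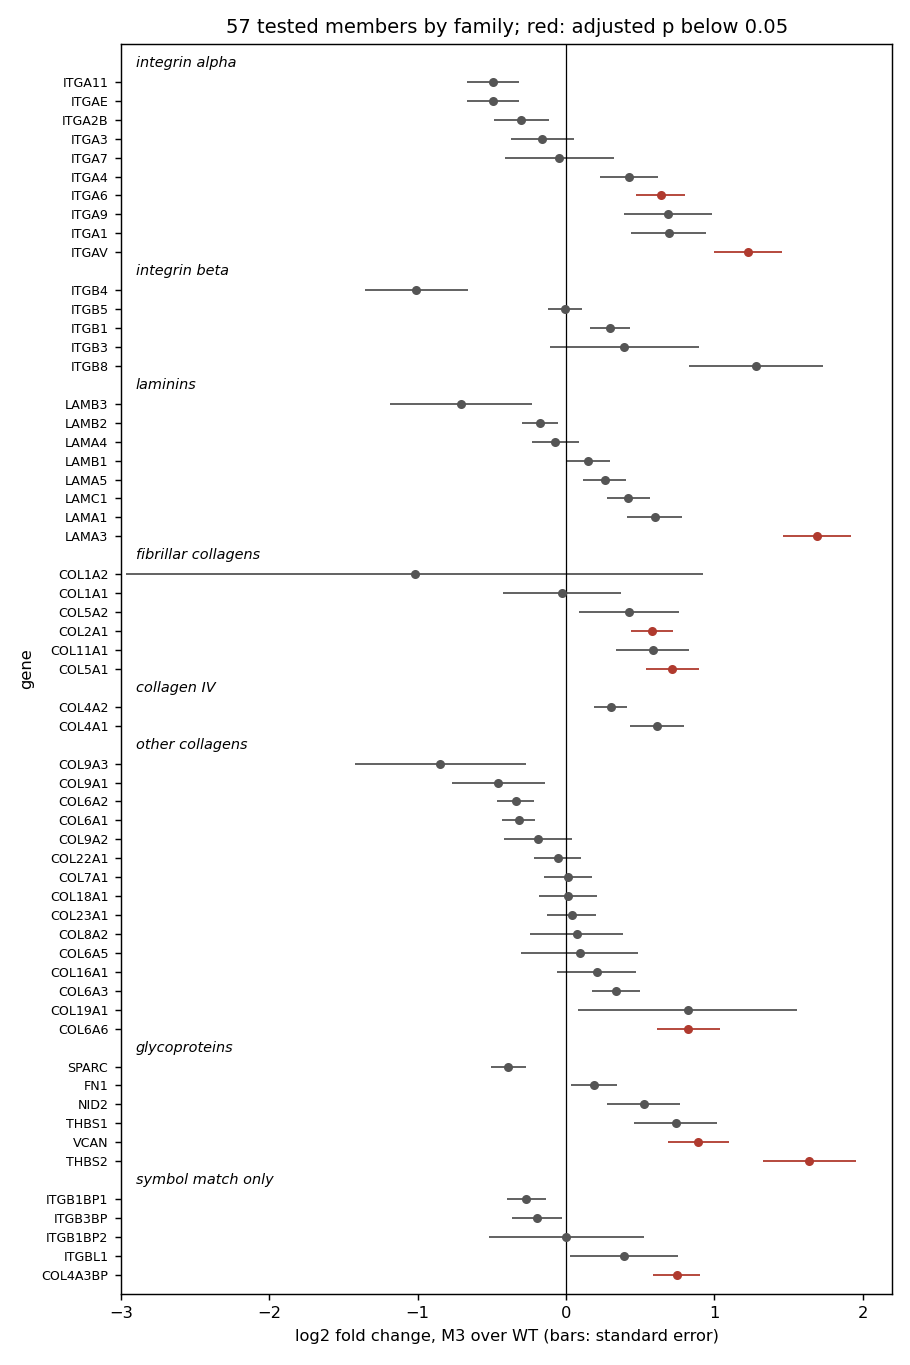
Log2 fold change of M3 over WT for the 57 tested members, grouped by family, with standard errors from edgeR; red marks an adjusted p below 0.05. The red points run from 0.58 (COL2A1) to 1.69 (LAMA3) and none lies below 0.

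The transcripts of these genes are long, and fold changes followed length across the whole transcriptome. The median length was 5811 nt for tested members and 3371 nt for all tested genes, and the 9 called members ran from 5071 to 12625 nt. Of the 35 members with a transcript of at least 5000 nt, 9 (25.7%) were called higher, and of all 3693 such genes 24.9% were called, 24.1% higher and 0.812% lower. None of the 22 shorter members was called, beside 12.9% of 10010 shorter genes, 3.95% higher and 8.97% lower. Across the 57 members the log2 fold change and log2 length correlated with r = 0.465 (rho = 0.556), and across 13703 tested genes with r = 0.437 (rho = 0.537). These are correlations across genes that share 4 libraries, given as a description. Among genes of at least 7000 nt the median was 0.64 in 20 members and 0.48 in all 1675 genes.

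**Figure D3:**
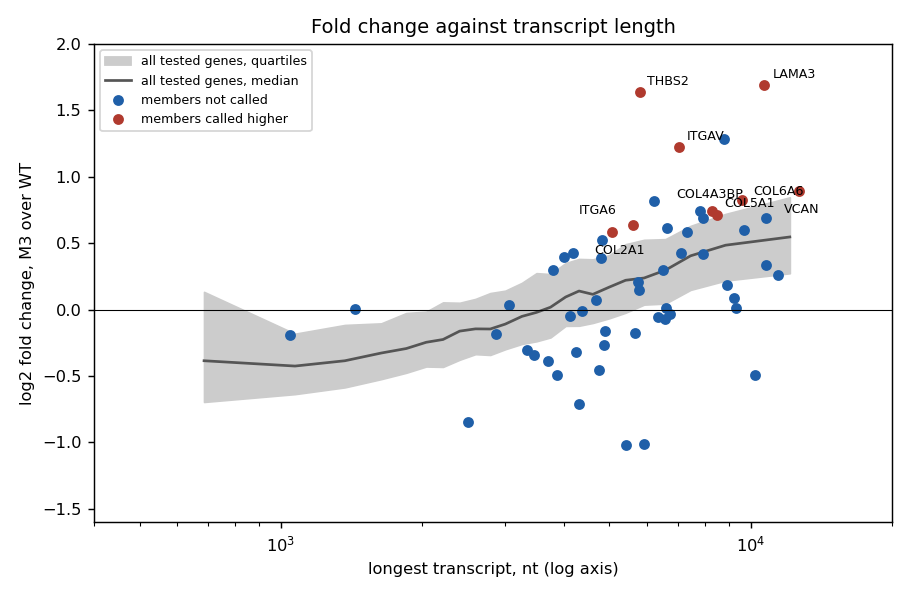
Log2 fold change of M3 over WT against the longest transcript of each gene (nt, log axis): grey line and band, median and quartiles of all tested genes in bins of equal size; points, tested members. LAMA3, THBS2 and ITGAV lie above the upper quartile at their length, as do the other called members, by less than 0.2 on the log2 scale.

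With the trends of transcript length and GC content fitted out of every library, 8 members (14.0%) passed, beside 5.0% of 13703 genes. Higher were LAMA3 (1.38 ± 0.21, adjusted p = 0.00556), THBS2 (1.52 ± 0.31, 0.0195), ITGAV (0.65 ± 0.14, 0.0311), COL2A1 (0.65 ± 0.13, 0.0156) and COL4A1 (0.50 ± 0.13, 0.0476), which makes 8.77% beside a background of 1.90%. Lower were SPARC (-0.45 ± 0.09, 0.0163), ITGA11 (-0.84 ± 0.14, 0.00788) and ITGB1BP1 (-0.54 ± 0.13, 0.0454), which makes 5.26% beside a background of 3.10%. VCAN (0.35, adjusted p = 0.0591), COL6A6 (0.40, 0.0749), COL5A1 (0.58, 0.0812), ITGA6 (0.32, 0.162) and COL4A3BP (0.25, 0.186) did not pass there. The corrected median was 0.08 in members and -0.02 in all genes.

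**Figure D4:**
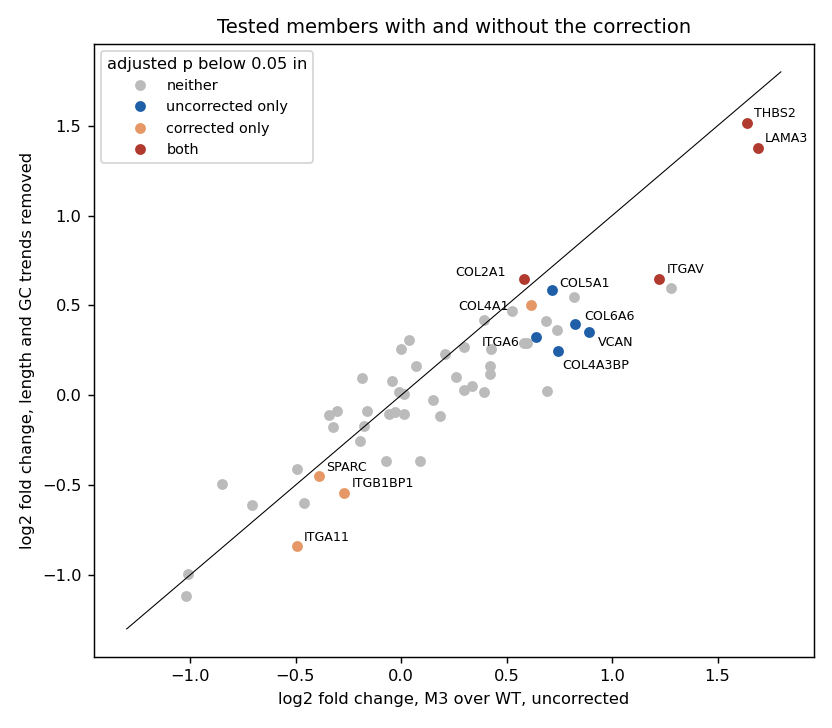
Log2 fold changes of the 57 tested members without (x) and with (y) removal of the length and GC trends; the line marks equal values. LAMA3, THBS2, ITGAV and COL2A1 passed in both fits, SPARC, ITGA11, ITGB1BP1 and COL4A1 in the corrected fit alone.

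The WT libraries were not alike. WT library 2 lay between WT library 1 and both M3 libraries in 31 of 57 members (54.4%) and 53.6% of all genes, and WT library 1 lay between in 7 members (12.3%) and 14.6% of all genes. Among the called members WT library 2 was the nearer one in 8 of 9, COL5A1 being the exception. All 9 kept the call without either WT library, where the spread comes from the M3 libraries alone. Without M3 library 1, LAMA3, THBS2 and ITGAV kept it and the other 6 lost it. None passed at an adjusted p of 0.01.

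**Figure D5:**
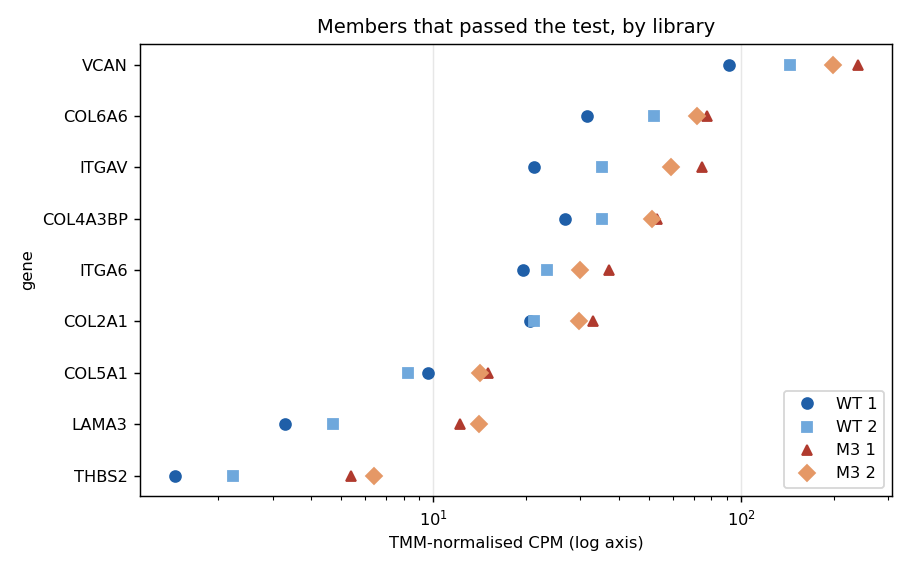
TMM-normalised CPM (log axis) of the 9 members that passed the test, 1 point per library. Both M3 points lie to the right of both WT points in each row, and WT 2 lies nearer to M3 than WT 1 in all rows but COL5A1.

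Among laminins, 1 of 8 tested chains rose (12.5%) and none fell, beside 9.16% and 6.63% of all tested genes. Of genes with a transcript of at least 5000 nt 24.1% were called higher, and the median length of the 8 chains was 7218 nt. The median log2 fold change was 0.20. With the length and GC trends removed 1 chain was called higher and none lower, with a median of 0.04. LAMA3 (chromosome 18, 23689453 to 23955066), the alpha chain of the epithelial laminin that anchors skin to its basement membrane, was counted 41 and 99 times in WT libraries 1 and 2 and 157 and 198 times in M3. This was 3.28 and 4.70 CPM with WT and 12.2 and 14.0 with M3. The lowest M3 value was over any WT value, and the rise was 3.23-fold (log2 fold change 1.69 ± 0.23, edgeR adjusted p = 0.0185). It was still a minor chain, at 1.15 and 1.32 RPKM in M3 beside 21.6 and 20.7 for LAMA5. LAMB3, a beta chain that pairs with it, stood at 1.44 and 1.05 CPM with WT and 0.779 and 0.710 with M3 (-0.71 ± 0.48, adjusted p = 0.316), which gave no call.

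None of the abundant laminin chains passed the test. LAMC1, the gamma chain shared by most laminins, was at 111 and 144 CPM with WT and 175 and 167 with M3 (0.42 ± 0.14, adjusted p = 0.0765). LAMA1, the embryonic alpha chain, was at 64.3 and 92.8 CPM with WT and 130 and 109 with M3 (0.60 ± 0.18, 0.0574). Neither passed, and LAMA1 did so with the replicate block. LAMC1 was at 0.24 without WT library 1 and at 0.12 with the trends removed, where LAMA1 was at 0.29. LAMA5 was at 174 and 229 CPM with WT and 247 and 236 with M3 (0.26 ± 0.15, 0.232). LAMB1 was at 119 and 151 CPM with WT and 156 and 144 with M3 (0.15 ± 0.14, 0.473), with overlapping groups. LAMB2, found at synapses and in the kidney filter, was at 100.2 and 112 CPM with WT and 92.3 and 95.6 with M3 (-0.18 ± 0.12, 0.334). The level of LAMB2 relative to LAMB1, per length, was 0.854 and 0.752 with WT and 0.601 and 0.673 with M3. LAMA4 gave 15.0 and 14.9 CPM with WT and 13.7 and 14.7 with M3 (-0.07 ± 0.16, 0.771).

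The paired collagen IV genes COL4A1 (chromosome 13, 110148963 to 110307157) and COL4A2 (110307284 to 110513209) share the start region printed above, and their chains form the common basement membrane collagen. COL4A1 was at 20.6 and 28.1 CPM with WT and 40.5 and 34.5 with M3, a log2 fold change of 0.61 ± 0.18 with an adjusted p of 0.0504. COL4A2 was at 181 and 187 CPM with WT and 231 and 222 with M3 (0.30 ± 0.11, 0.0968). Both M3 libraries were above both WT libraries in each gene, and neither passed. COL4A1 passed with the replicate block (adjusted p = 0.0239), with DESeq2 (0.0320) and with a stricter count filter (0.0492). It stayed uncalled in 8 of 17 alternatives, among them upper-quartile scaling, total-count scaling and limma-voom. Per length, COL4A1 stood at 0.112 and 0.147 of COL4A2 in WT and 0.172 and 0.153 in M3. The other head-to-head pairs were scarcely read: COL4A3 and COL4A4 had 32 and 40 reads in all, COL4A6 had 3 and COL4A5 had 0.

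Fibrillar collagens had 2 rises (33.3%) and no fall among 6 tested genes, beside 9.16% and 6.63% of all tested genes. The median length of the 6 was 6904 nt, and 24.1% of genes with a transcript of at least 5000 nt were called higher. The median log2 fold change was 0.50. With the length and GC trends removed 1 of the 6 was called higher and none lower, with a median of 0.23. COL5A1, a chain of the collagen that starts fibril growth, was at 9.61 and 8.27 CPM with WT and 15.0 and 14.2 with M3 (0.72 ± 0.18, adjusted p = 0.0355). COL2A1, the cartilage collagen, was at 20.6 and 21.3 CPM with WT and 33.0 and 29.7 with M3 (0.58 ± 0.14, 0.0346). In both genes the gap between groups was larger than the difference within them. Either call ended without M3 library 1 or without M3 library 2 (adjusted p from 0.106 to 0.346). COL11A1, a relative of COL5A1, was at 14.6 and 26.8 CPM with WT and 30.1 and 32.8 with M3 (0.58 ± 0.25, 0.129). It was at 0.22 without WT library 1 and 1.10 without WT library 2, and passed with the replicate block (0.65, 0.0208). COL5A2 gave 2.08 and 3.66 CPM with WT and 4.28 and 3.62 with M3 (0.42 ± 0.34, 0.390).

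The chains of collagen I, the main collagen of connective tissue, differed more within WT than between groups. COL1A2 had 109 reads in WT library 1, none in WT library 2, and 24 and 30 with M3 (-1.02 ± 1.94, adjusted p = 0.751). COL1A1 had 211, 126, 134 and 160 reads in the same order, or 16.9 and 5.99 CPM with WT and 10.4 and 11.3 with M3 (-0.03 ± 0.40, 0.967). Leaving out WT library 1 gave 0.86 and leaving out WT library 2 gave -0.64, each past the threshold. The epithelial keratins KRT5 and KRT14 also had reads mainly in WT library 1, with 72 and 36 reads there, 0 in WT library 2 and at most 2 in an M3 library. The 7 epithelial markers summed to 15.6 and 4.61 CPM with WT and 4.13 and 2.98 with M3. Their part in the collagen I counts was not tested.

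Of 5 tested chains of collagen VI 1 passed, beside 15.8% of all tested genes. COL6A1 was at 244 and 240 CPM with WT and 189 and 199 with M3 (-0.32 ± 0.11, adjusted p = 0.0813), and COL6A2, from the same region of chromosome 21, at 95.6 and 97.2 with WT and 72.0 and 80.5 with M3 (-0.34 ± 0.13, 0.0920). The WT values of each gene were close together and above both M3 values, but neither passed. The level of COL6A1 relative to COL6A2, per length, stayed between 2.02 and 2.14 in all 4 libraries. COL6A3, the chain that completes the common trimer, was at 44.1 and 58.8 CPM with WT and 67.6 and 62.9 with M3 (0.34 ± 0.16, 0.163). With the length and GC trends removed COL6A1 was at -0.17, COL6A2 at -0.11 and COL6A3 at 0.05. COL6A6, an alternative to COL6A3, rose from 31.6 and 51.9 CPM with WT to 77.1 and 71.8 with M3 (0.83 ± 0.21, 0.0376). Relative to COL6A1 per length, without removal of the trends, COL6A6 was at 0.0573 and 0.0955 with WT and 0.181 and 0.160 with M3. The call of COL6A6 ended without M3 library 1 (0.77), under total-count scaling (adjusted p = 0.0586) and after removal of the length and GC trends. With the replicate block added to that removal COL6A6 passed, at 0.42. Leaving out WT library 1 gave 0.51. Its neighbour COL6A5 gave 2.40 and 1.99 CPM with WT and 3.04 and 1.63 with M3 (0.09 ± 0.40, 0.892).

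Among the other 10 tested collagens none passed, beside 15.8% of all tested genes, and log2 fold changes ran from -0.85 (COL9A3) to 0.82 (COL19A1). COL7A1, the anchoring fibril collagen, was at 53.3 and 72.9 CPM with WT and 63.0 and 64.6 with M3 (0.01 ± 0.16, adjusted p = 0.969). COL18A1, the source of endostatin, was at 24.2 and 36.3 CPM with WT and 31.7 and 29.7 with M3 (0.01 ± 0.20, 0.971). In both genes the M3 values lay between the WT values. COL9A1, COL9A2 and COL9A3, the chains of collagen IX, had log2 fold changes of -0.46, -0.19 and -0.85 with adjusted p of 0.318, 0.585 and 0.317.

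Of 6 tested matrix glycoproteins and proteoglycans 2 rose (33.3%) and none fell, with a median of 0.63. Of all tested genes 9.16% were called higher, and 24.1% of those with a transcript of at least 5000 nt. The median length of these 6 was 6793 nt. With the length and GC trends removed 1 was called higher and 1 lower, with a median of 0.36. THBS2 (chromosome 6, 169215785 to 169253846), thrombospondin 2, a matricellular protein that inhibits blood vessel growth, had 18 and 47 reads in WT and 69 and 90 in M3. This was 1.44 and 2.23 CPM with WT and 5.38 and 6.39 with M3, with every M3 value above every WT value. The rise was 3.12-fold (1.64 ± 0.31, edgeR adjusted p = 0.0224). THBS2 passed in all alternatives run other than the threshold of 0.01. Its paralog THBS1 was at 3.84 and 2.71 CPM with WT and 5.45 and 5.32 with M3 (0.74 ± 0.28, 0.0979), without overlap but without a call.

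VCAN (chromosome 5, 83471744 to 83582302), versican, was at 91.2 and 144 CPM with WT and 240 and 198 with M3 (0.89 ± 0.21, adjusted p = 0.0311). The groups did not overlap, and the distance between the WT libraries was about as large as that from WT library 2 to M3 library 2. The call of VCAN ended without M3 library 1 (0.74, adjusted p = 0.0768), under total-count scaling (0.0502) and after removal of the length and GC trends. Leaving out WT library 1 gave 0.59. FN1, fibronectin, which many integrins bind, was at 98.3 and 129 CPM with WT and 139 and 121 with M3 (0.19 ± 0.16, 0.415), and the groups overlapped. VCAN relative to FN1, per length, was 0.654 and 0.788 with WT and 1.22 and 1.16 with M3.

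SPARC was at 299.7 and 282 CPM with WT and 217 and 227 with M3, with all M3 values lower, a log2 fold change of -0.39 ± 0.12 and an adjusted p of 0.0523. It passed with upper-quartile scaling (0.0482), with DESeq2 (0.0266) and in the fit with trends removed. SPARC stayed uncalled in 8 of 17 alternatives, among them total-count scaling, limma-voom and the replicate block. NID2, a nidogen that links laminin to collagen IV, was at 5.04 and 5.13 CPM with WT and 8.65 and 6.03 with M3 (0.52 ± 0.25, 0.162), and 21.6% of its exonic bases lie in another annotated gene, so its count is uncertain. The other nidogen, NID1, had 2 reads in all. TNC, tenascin C, had none in 60478856 gene reads, which allows up to 0.0496 CPM by a limit of 3 counts, for counting error only.

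Among integrin alpha chains 2 of 10 rose (20.0%) and none fell, beside 9.16% and 6.63% of all tested genes. The median was 0.19. With the length and GC trends removed 1 chain was called higher and 1 lower, with a median of 0.05. ITGAV (chromosome 2, 186590056 to 186680901), the alpha V chain of receptors for fibronectin and vitronectin, had 265 and 744 reads in WT and 956 and 832 in M3. This was 21.2 and 35.3 CPM with WT and 74.5 and 59.0 with M3. Each M3 value exceeded each WT value, and the rise was 2.34-fold (1.22 ± 0.23, edgeR adjusted p = 0.0224). It passed in all alternatives run other than the threshold of 0.01, though its log2 fold change was 0.65 with the length and GC trends removed. ITGA6, a laminin receptor chain, was at 19.5 and 23.3 CPM with WT and 37.1 and 29.9 with M3 (0.64 ± 0.17, 0.0395). The call of ITGA6 ended without M3 library 1 (0.47, adjusted p = 0.375), under total-count scaling (0.0529) and with the trends removed.

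Other alpha chains gave no call. The collagen and laminin receptor chain ITGA1 was at 11.1 and 17.3 CPM with WT and 27.8 and 18.8 with M3 (0.69 ± 0.25, adjusted p = 0.0864), and its log2 fold change was 0.03 with the trends removed. Leaving out 1 library gave 0.41 without WT library 1, 1.06 without WT library 2 and 0.39 without M3 library 1. ITGA1 passed with the replicate block (0.0176). ITGA9 was at 8.73 and 18.6 CPM with WT and 24.2 and 20.8 with M3 (0.69 ± 0.30, 0.132). ITGA4 was at 8.97 and 11.7 CPM with WT and 12.9 and 15.0 with M3 (0.43 ± 0.20, 0.154). In these 3 genes the groups did not overlap. ITGA11, a collagen receptor chain, was at 18.7 and 23.6 CPM with WT and 16.1 and 14.1 with M3 (-0.49 ± 0.17, 0.0828). ITGAE was at 25.4 and 24.3 CPM with WT and 15.0 and 20.2 with M3 (-0.49 ± 0.17, 0.0824). Both were lower in each M3 library. ITGA2B (-0.30), ITGA3 (-0.16) and ITGA7 (-0.04) had adjusted p of 0.265, 0.617 and 0.943.

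None of the 5 tested beta chains passed, beside 15.8% of all tested genes. ITGB1, the partner of most alpha chains, was at 108 and 133 CPM with WT and 149 and 148 with M3 (0.30 ± 0.14, adjusted p = 0.15). ITGB5, a partner of the alpha V chain, was at 169.7 and 159.7 CPM with WT and 165 and 163 with M3 (-0.01 ± 0.11, 0.969), so its M3 values lay between its WT values. ITGAV relative to ITGB5, per length, was 0.0778 and 0.138 with WT and 0.281 and 0.226 with M3. ITGB8, another alpha V partner, was at 1.60 and 1.47 CPM with WT and 5.30 and 2.2 with M3 (1.28 ± 0.45, 0.0802). Leaving out M3 library 1 gave 0.52, and it passed with the replicate block (0.0427). ITGB4, which pairs with the alpha 6 chain in epithelia, was at 4.0 and 3.56 CPM with WT and 2.34 and 1.42 with M3 (-1.01 ± 0.34, 0.0747). ITGB3 was at 0.641 and 0.855 CPM with WT and 1.17 and 0.851 with M3, and 51.6% of its exonic bases lie in another gene. ITGB6 had 1 read in all.

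Of the rows caught by spelling, COL4A3BP encodes the ceramide transfer protein CERT and not a collagen. It rose from 26.7 and 35.3 CPM with WT to 53.4 and 51.2 with M3 (0.75 ± 0.16, adjusted p = 0.0275), and lost the call without M3 library 1 (0.119) and in the fit corrected for both trends. ITGB1BP1, a cytoplasmic protein that binds the ITGB1 tail, was at 154 and 128 CPM with WT and 116 and 119 with M3 (-0.27 ± 0.13, 0.175), and 39.5% of its exonic bases lie in another gene. ITGB3BP, a centromere protein, was at 22.7 and 18.0 CPM with WT and 16.9 and 18.4 with M3 (-0.19 ± 0.17, 0.438). ITGB1BP2 (0.00 ± 0.52, 0.998) and ITGBL1 (0.39 ± 0.37, 0.470, with 73.5% of its exonic bases shared) gave no call.

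The 40 members not tested had between 0 and 40 reads over all libraries. Of these 11 had none: TNC, LAMC3, ITGB2, ITGAX, COL4A5, COL5A3, COL15A1, COL20A1, COL24A1, COL25A1 and the pseudogene COL6A4P1. The leukocyte chains ITGAM and ITGAL had 1 and 39 reads, the fibronectin receptor chain ITGA5 had 37, the collagen receptor chain ITGA2 had 22 and LAMA2, the muscle and Schwann cell laminin chain, had 10. COL3A1, which accompanies collagen I in soft tissue, had 24.

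Genes that make, cut or anchor the matrix but are not members were counted from lists of 142 genes, of which 120 were tested. Of these 10 rose and 6 fell (13.3%, beside 15.8% of all genes), with a median of 0.06. In collagen processing 2 of 32 rose (6.25%) and 4 fell (12.5%), beside 9.16% and 6.63% of all tested genes, with a median of -0.13. SEC23A, a COPII coat protein needed for procollagen export, was at 39.0 and 49.1 CPM with WT and 86.1 and 77.8 with M3 (0.89 ± 0.15, adjusted p = 0.0204), and PLOD2, a lysyl hydroxylase, rose by 0.49 on the log2 scale. The collagen processing genes PPIB (-0.79 ± 0.16, 0.0244), P3H4 (-0.52 ± 0.15, 0.0473) and CRTAP (-0.49 ± 0.14, 0.0473) fell with the lysyl hydroxylase PLOD1 (-0.45 ± 0.13, 0.0467). P3H1 (-0.24 ± 0.13, 0.223) and P3H3 (-0.16 ± 0.12, 0.390) of the same list gave no call. Exonic bases of PPIB are shared to 48.0% with another gene. With the length and GC trends removed PPIB was at -0.34 (0.0700), P3H4 at -0.24 (0.186), PLOD1 at -0.23 (0.194) and PLOD2 at 0.10 (0.568), so these 4 calls ended, while SEC23A at 0.45 (0.0325) and CRTAP at -0.73 (0.0331) passed. Without M3 library 1 the calls of SEC23A (0.0594), PPIB (0.103), P3H4 (0.295) and CRTAP (0.407) ended. Those of P3H4 and CRTAP also ended with the replicate block (adjusted p of 0.0534 and 0.0733).

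In matrix turnover the median was 0.28, and the median length was 4888 nt beside 3371 nt for all tested genes. Correction for the trends of length and GC content left a median of 0.075 and no call. Of all tested genes 9.16% were called higher and 6.63% lower. Without the correction 3 of the 23 genes in this list rose and none fell. They were the membrane metalloproteinase MMP16 (5.21 and 14.0 CPM with WT, 32.3 and 22.8 with M3, 1.47 ± 0.38, adjusted p = 0.0405), ADAMTS20 (1.17 ± 0.30, 0.0373) and ADAM19 (0.60 ± 0.15, 0.0365). MMP16 was at 0.96 without WT library 1 and 2.39 without WT library 2, and ADAMTS20 at 0.76 and 1.85. None of the 3 passed with the trends removed or with total-count scaling, and DESeq2 gave MMP16 an adjusted p of 0.105. ADAMTS20 did pass where the replicate block was added to the trend removal. ADAM19 also lost the call without either M3 library, at 0.62 without M3 library 1 and 0.59 without M3 library 2. Among 27 proteoglycans and other matrix genes DDR2, a collagen receptor kinase, rose (144 and 211 CPM with WT, 314 and 267 with M3, 0.71 ± 0.18, 0.0376), and the heparan sulfate proteoglycan GPC3 (-1.22 ± 0.23, 0.0223) and biglycan (BGN, -0.96 ± 0.17, 0.0214) fell, with a list median of 0.01. These are 3.7% higher and 7.41% lower, beside 9.16% and 6.63% of all tested genes. GPC3 passed in all alternatives run other than the threshold of 0.01. DDR2 was at 0.18 with the trends removed (0.263), at 0.59 without M3 library 1 (0.207) and at 0.46 without WT library 1, and lost the call under total-count scaling (0.0553). BGN lost the call without M3 library 1 (0.0788).

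In the cytoplasmic adhesion list the median was 0.09. It was -0.006 after correction for the trends of length and GC content, where no gene was called. Of all tested genes 9.16% were called higher and 6.63% lower. Without the correction 4 of the 38 genes in this list rose and none fell. Among them were the actin elongation factor ENAH (289 and 355 CPM with WT, 513 and 484 with M3, 0.63 ± 0.14, adjusted p = 0.0292), LIMS1 of the ILK complex (0.51 ± 0.15, 0.0495) and kindlin 2 (FERMT2, 0.50 ± 0.13, 0.0364), which activates integrins. These 3 lost the call without either M3 library, and none passed with those trends removed, where ENAH was at -0.004. LIMS1 and FERMT2 also lost it with the replicate block (0.0731 and 0.0606), and LIMS1 with upper-quartile scaling (0.0542) and DESeq2 (0.0592).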

How the data were processed

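RNA-seq gene counts were deposited by the authors as whole reads per gene symbol in 1 table a library, unnormalised. Per the submitters' processing notes the tools were HISAT2 2.1.0, HTSeq and DESeq2 on hg38. The annotation used and any strand setting: not given in the sources used here. Genes that overlap in exons are therefore named as uncertain. Rows that name no gene were left out: reads in no feature were 23.25% and 23.24% of the WT tables and 27.53% and 25.57% of the M3 tables, and ambiguous reads 3.16% to 3.5% of each.

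The 2 WT and 2 M3 libraries were compared with edgeR 4.0.16 in R 4.3.3 (TMM, filterByExpr, robust quasi-likelihood F test), fitted over all genes with Benjamini-Hochberg adjustment and a threshold of 0.05, and tested on simulated data. An exact permutation test of 2 against 2 cannot go below p = 0.333. Lengths, GC content and shared exonic bases came from GENCODE 29, taking the longest basic transcript, and positions and start regions from RefSeq GRCh38.p14. Symbols matched RefSeq for 26084 rows and through a synonym for 1012.

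Alternatives were DESeq2 1.42.0, limma-voom (limma 3.58.1), other scalings and count filters, each library left out, a replicate block, and removal of length and GC trends (splines of 5 df). A block with crossed numbers and an uncorrected fit on genes with a transcript were added after seeing the data. Replicate numbers are shared in the labels, but nothing says that they pair cultures. Members and lists were chosen with earlier results of these data known. Named were all called members, in each family the 3 uncalled members of highest mean CPM, uncalled members with a log2 fold change of at least 1 in size and no overlap, neighbours of named genes, and up to 4 called genes from each other list. Other members are named to complete their family, chosen after their values were seen. Some genes of these lists are not reported here.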

Additional observations from a re-analysis of the deposited data

How the results depend on the processing

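With 2 libraries a group, the counts of calls rest on how far the libraries of a group lie apart. Over all genes 2232 were called, over the members 9 and over the other matrix and adhesion genes 16. Leaving out 1 library gave 359 to 6735, 3 to 33 and 3 to 63 calls, lowest without M3 library 1 and highest without WT library 2 in each set; the lone library is then assumed to vary like the other group. Total-count scaling gave 1120 calls over all genes, 76.4% of them higher beside 58.0%, and 7 over the other genes. No count filter gave 3945, 21 and 29. Removing length and GC trends gave 685 over all genes and 4 over the other genes. At a threshold of 0.01 edgeR called 0 in each set, while 5078, 24 and 40 had an unadjusted p below 0.05 and DESeq2 called 2529, 12 and 20 at 0.05. The cause was not tested.

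Same-numbered libraries did not deviate together (r = -0.144). With the replicate block 15 members were called, and it moved the counts over all genes and the other genes to 2315 and 14. The block with trend removal gave 842 over all genes and 6 over the other genes. The crossed pairing as block, suggested by the negative correlation and chosen after seeing the data, gave 5314, 27 and 45.

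COL1A1 reversed, from -0.636 without WT library 2 to 0.857 without WT library 1. ENAH was at -0.004 with trends removed, and at -0.004 with the replicate block added. Among values of the 9 called members under the alternatives, 124 kept the direction and the call and 29 lost the call. Genes with few reads, such as LAMB3 and ITGB3, and the 40 members not tested are limited by depth.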
